A study of Rattus norvegicus with 3 samples.

Results

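The comparison described here sets the soleus of rats after 14 days of hind limb unloading against the soleus of control rats, gene by gene. A gene was taken when its log2 signal reached the 40th percentile of all values, a floor of 6.01, on the control array or on the 14-day array, which 11062 of 14217 named genes did. The study measured the soleus, the slow antigravity muscle of the calf, in Sprague-Dawley rats aged 8 weeks. The control rats were not suspended, and the suspended rats hung by the taped tail at about 30°, which lifts the hind limbs off the floor, for 7 or 14 days. RNA of 4 rats was mixed in each of the 3 groups, and each mixture was read on 1 Affymetrix array, so there are no replicates, no spread between rats and no tests in what follows. The sample taken as the 14-day group has that time in its title and time entry, whereas its source text speaks of 7 days, and the control is labelled as a control of 7 days, so the 14-day group is set against a control of another time.

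A slow muscle fibre that bears load keeps up chaperones for its heavily used proteins, a dense mitochondrial network and sensors that couple tension to transcription. When load is taken away, the soleus loses mass and its fibres take on features of fast, glycolytic fibres, while fibroblasts, capillaries, nerve endings and resident leukocytes share the tissue and its RNA. In such bulk RNA, fewer cells of a type and less RNA per cell cannot be told apart. Fibre-type genes mark the tissue here and are otherwise left aside.

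The deposited signals had been scaled to nearly the same trimmed mean on each array, 500.2 unlogged. Between 59.1% and 61.6% of the 31099 probe sets reached the floor, and the array medians lay between 6.70 and 6.77. All 20 named skeletal muscle markers were measured, with Acta1, skeletal actin, at 15.74 in control and 15.68 at 14 days and Myh7, the slow myosin, at 15.81 and 15.67. The highest signal lay between 15.87 and 16.03 on the 3 arrays, and differences between signals near it may be compressed. The 3′ minus 5′ signal of Gapdh, a measure of RNA integrity, was between 0.20 and 0.25 on the log2 scale. Probe sets of 1 gene gave the only measure of error, a technical one: the SD of a single probe set's log2 difference was 0.36 over all of them, 0.47 at mean signals under 8 and 0.28 at 10 and above. A difference of 1.5-fold, or 0.58 on the log2 scale, exceeds this SD at every brightness, but for a dim gene not by much. A single gene can therefore pass 1.5-fold by technical error alone. Of 2405 pairs of probe sets of 1 gene, 5.78% had differences 2-fold apart, and at mean signals under 8 it was 11.8%. Error between arrays or RNA pools is not part of this SD.

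A 2-fold difference was reached by 662 genes (5.98%) at 14 days, 390 of them (3.53%) above control and 272 (2.46%) below it, so that 58.9% of these genes were on the higher side. With the floor at the 20th percentile that share was 45.6%, at the 60th 62.0% and with no floor 43.8%. Of the 62 higher genes that had a further probe set above the floor, 51 had it on the same side, and of the 52 lower ones 47. Gene groups are described at 1.5-fold, which 11.8% of all measured genes reached upward and 9.39% downward, with a median log2 difference of 0.02. By sign alone, 5755 of all 11062 measured genes lay above control and 5307 below it, the background for counts of genes on one side. A fold written with "at least" has the dimmer array under the floor and is a bound. Where 3 log2 signals follow a gene name, they are those of control, 7 days and 14 days, in that order, and the differences and folds are always those of 14 days against control. The 7-day array shares its control with the 14-day array, so its signals are shown as values only. A plot of all measured genes places the chaperones almost wholly below 0 and most collagen genes above it.

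**Figure D1:**
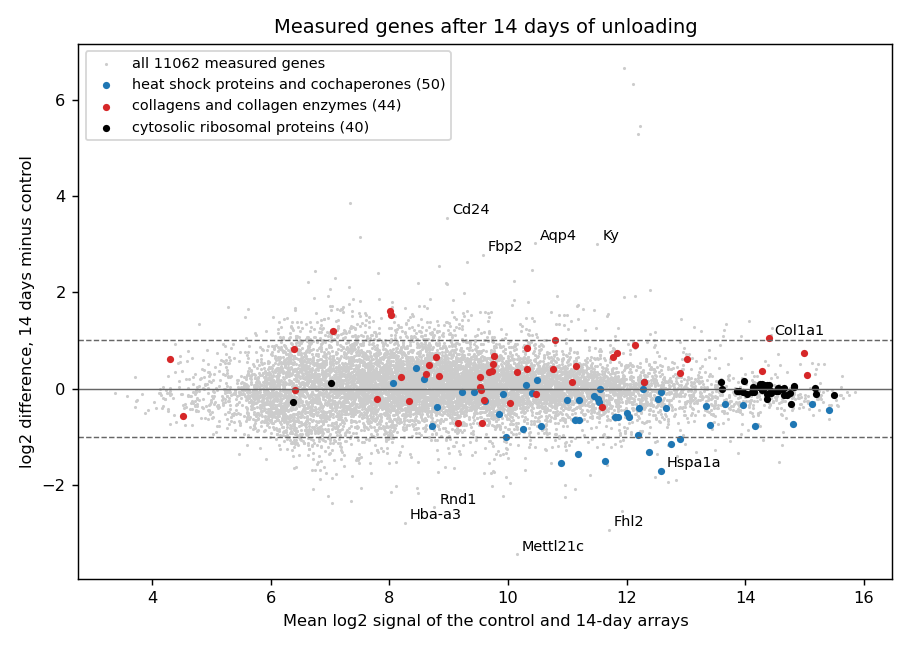
Log2 difference of 14 days minus control (y axis) against the mean log2 signal of both arrays (x axis) for the 11062 measured genes, 1 point per gene, with dashed lines at 2-fold. Of the coloured groups, 44 of 50 heat shock and cochaperone genes lie below 0, 33 of 44 collagen genes lie above it, and the 40 cytosolic ribosomal protein genes scatter closely around it.

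Heat shock proteins hold unfolded proteins and pass them on for refolding, and cochaperones such as the DnaJ and BAG proteins direct them to their clients. Of 50 measured genes of this group, 19 stood at least 1.5-fold below control and 0 stood as far above it, and the median log2 difference was -0.39. Hspa1a, the inducible HSP70 chaperone, had signals of 13.44, 12.13 and 11.72 and was 3.29-fold lower. Hsph1, an HSP110 chaperone and nucleotide exchange factor, had 11.66, 10.60 and 10.12 and was 2.92-fold lower, while its other probe set differed by -1.27. Both genes were lower on the 7-day array and lower still on the 14-day array.

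Several classes shared the low values. Among the HSP70 and HSP110 chaperones, 6 of 10 were at least 1.5-fold lower, including Hspa5, the chaperone of the endoplasmic reticulum (13.42, 12.42 and 12.37, 2.07-fold lower), and Hspa2 (2.02-fold lower). All 8 small heat shock genes lay below control, 4 of them by at least 1.5-fold. Hspb1, which protects actin filaments, had 15.17, 14.96 and 14.43, close to the top of the scale in control. Hspb7 and Hspb8 were 1.72-fold and 1.69-fold lower. BAG3 pairs with HSPB8 in the tension-dependent removal of damaged filamin: Bag3 had 12.67, 11.91 and 11.70 and was 1.96-fold lower, Bag2 had 12.39, 11.52 and 10.88 and was 2.85-fold lower, and 4 of 6 BAG genes passed 1.5-fold. The DnaJ genes Dnajb5, Dnajb4 and Dnaja4 were 2.57-fold, 2.50-fold and 2.23-fold lower. Across the wider family of 37 measured DnaJ genes 9 were at least 1.5-fold lower and 1, Dnajb14, was 1.71-fold higher. The median of that wider family was -0.08, against -0.63 for the BAG genes and -0.54 for the small heat shock genes.

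**Figure D2:**
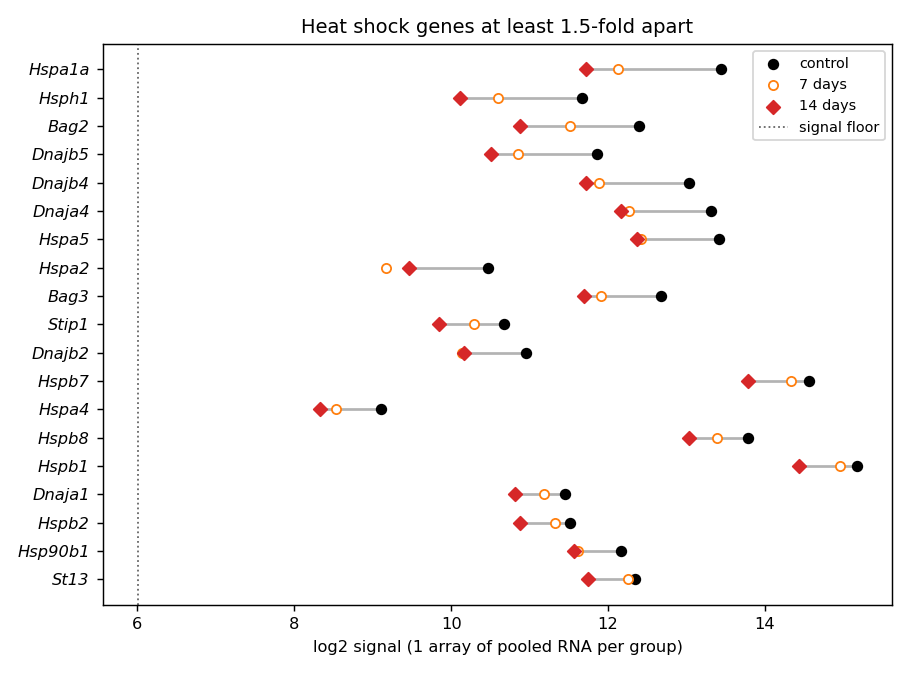
Log2 signal (x axis) on the control, 7-day and 14-day arrays for the 19 heat shock and cochaperone genes at least 1.5-fold apart between control and 14 days, 1 row per gene, with the signal floor dotted. In each row the 14-day diamond lies to the left of the control point, with a log2 difference of -1.72 for Hspa1a at the top and -0.59 for St13 at the bottom.

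Heat shock factors bind inverted repeats of the letters GAA. In the RefSeq promoter windows of build GRCr8 (250 bases before to 50 after the annotated start), a pair of such repeats, GAANNTTC or TTCNNGAA, was found in 17 of the 43 promoters of the group (39.5%), against 11.4% of the 9214 promoters of measured genes. A triplet, TTCNNGAA followed by NNTTC or its reverse complement, each of which also holds a pair, was in 6 of 43 (14%), against 0.445%. Within the group the 17 genes with a pair had a median difference of -0.40 and the 26 without one -0.36, values that lie close together. The following stretches show matches in members that were low at 14 days, 5′ to 3′ on the gene's strand, ending before the annotated start, with the matched bases in capitals. They lie at chr12:10427302-10427367 (+ strand) for Hsph1, where the match begins at position -36 from the start, chr6:100864348-100864415 (+) for Hspa2 at -64, chr1:192533298-192533365 (+) for Bag3 at -132, chr12:26432373-26432460 (- strand) for Hspb1 at -129 and chr1:213657655-213657692 (-) for Stip1, which links HSP70 and HSP90 (1.79-fold lower), at -8.
Hsph1: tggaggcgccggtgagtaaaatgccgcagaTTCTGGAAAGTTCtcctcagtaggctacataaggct
Hspa2: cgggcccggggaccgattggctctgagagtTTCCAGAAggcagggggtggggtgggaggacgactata
Bag3: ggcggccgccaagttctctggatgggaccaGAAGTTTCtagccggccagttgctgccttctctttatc
Hspb1: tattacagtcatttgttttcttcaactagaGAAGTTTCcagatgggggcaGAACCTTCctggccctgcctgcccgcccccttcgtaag
Stip1: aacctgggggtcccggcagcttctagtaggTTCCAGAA
A match is a description of the letters and not of a bound site.

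Genes of the cytoskeleton leaned to lower values. Of 73 measured cytoskeleton, tubulin and motor genes 15 were at least 1.5-fold lower and 3 higher, with a median of -0.18. Fhl2, a LIM protein at the sarcomere and in the nucleus, had 13.16, 11.45 and 10.23 and was 7.64-fold lower, with a further probe set at -2.83. Rnd1, a small GTPase that opposes stress fibres, had 9.98, 7.71 and 7.52 and was 5.53-fold lower. Enah, which extends actin filaments at adhesions, was 4.03-fold lower (11.96, 9.99 and 9.95). The actin-binding Pdlim1 was 2.65-fold lower and the non-muscle myosin Myh10 2.26-fold lower. In this list the exceptions were Mylk2, the skeletal myosin light chain kinase (1.96-fold higher), Myo9b (1.59-fold) and Kif5a (1.57-fold), the last with a further probe set at -0.63. Of 10 tubulins, 9 lay below control and 1, Tubb6, by more than 1.5-fold. Among integrin, laminin and adhesion genes 8 of 55 were lower, including the mechanosensitive adaptors Tns1 (2.08-fold), Tln1 (1.62-fold) and the integrin Itga7 (1.57-fold), and 3 higher. Averaging the probe sets of Itga7 gave a difference of 0.38 in place of -0.65. Ankrd2, a titin-bound protein of slow fibres that responds to stretch, had 15.33, 14.39 and 13.81 and was 2.88-fold lower, and Homer2, a scaffold of calcium signalling, had 10.60, 9.55 and 8.89 and was 3.28-fold lower.

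Serum response factor acts on many such genes through the CArG box. The motif was in 5 of 62 cytoskeleton promoters (8.06%), against 1.37% of all 9214, and the 5 genes with it and the 57 without it had medians of -0.18 and -0.18. Among immediate early genes it was in 5 of 30 promoters (16.7%), with medians of 0.33 with it and -0.12 without it. The stretch of Fhl2, the gene of this list with the largest difference, is shown at chr9:52954596-52954665 (-), with the CArG box in capitals from position -95.
Fhl2: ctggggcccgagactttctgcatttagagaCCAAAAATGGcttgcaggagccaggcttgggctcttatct

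Immediate early genes, which cells switch on within minutes of a stimulus, split in both directions: 12 of 40 were at least 1.5-fold lower and 6 higher. The AP-1 subunit Fos had 12.08, 10.74 and 9.83 and was 4.76-fold lower, Fosb and Junb were at least 2.18-fold and 2.03-fold lower, and the small MAF proteins Maff and Mafk were 4.53-fold and 2.01-fold lower. Csrnp1 was at least 4.73-fold lower. On the other side Gadd45g, a growth arrest gene, had 9.18, 12.31 and 11.64 and was 5.50-fold higher, while its relative Gadd45b was 2.61-fold lower. Ier3 was 3.09-fold higher, Rgs2, a brake on G protein signals, 2.16-fold higher, and Mrtfa, the actin-sensing cofactor of serum response factor, 2.28-fold higher. Rcan1, the feedback inhibitor of calcineurin, had 13.78, 12.07 and 11.88 and was 3.75-fold lower, and Rcan2 1.66-fold lower. The calcineurin subunits Ppp3ca and Ppp3r1 stood 1.55-fold and 1.75-fold above control, with a further Ppp3r1 probe set at -0.02.

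Some growth factor ligands were also low. Hbegf, which binds EGF receptors, had 9.11, 6.43 and 6.96 and was 4.43-fold lower, and Bdnf, a neurotrophin, had 7.82, 5.11 and 6.32 and was 2.81-fold lower. Both had their lowest signal on the 7-day array, where that of Bdnf lay under the floor. Fgf1 was 2.05-fold lower. In all, 5 of 42 growth factor genes of vessels, nerve and fibroblasts were lower and 8 higher, the latter including the receptors Pdgfra (1.69-fold) and Fgfr4 (1.76-fold) and the guidance receptor Nrp2 (1.63-fold). Tnfrsf12a, the receptor of TWEAK, was 2.99-fold lower, and its ligand Tnfsf12 1.53-fold higher.

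The plot of gene lists sets these shares side by side.

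**Figure D3:**
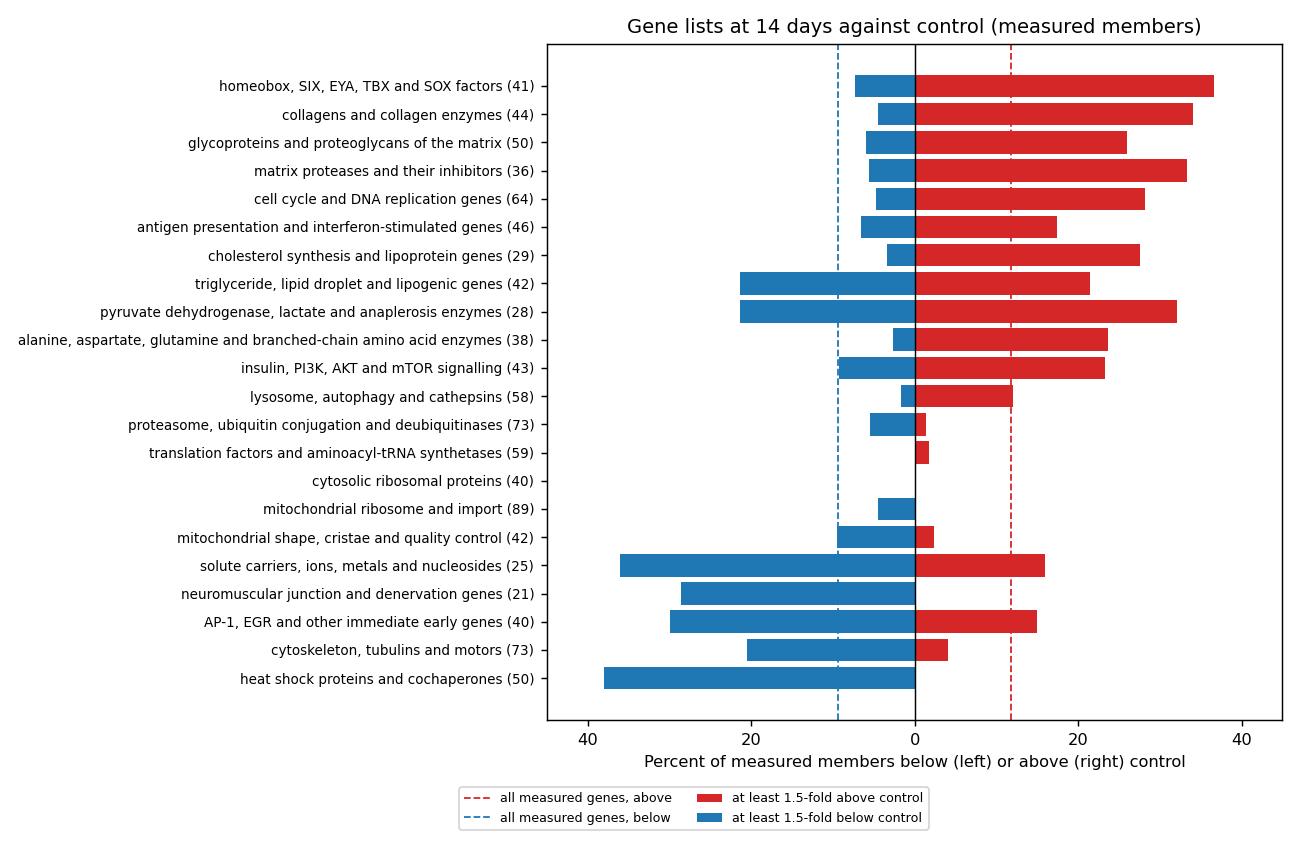
Percent of measured members (x axis) at least 1.5-fold below control (bars to the left) and above control (bars to the right) for 22 gene lists, with the number of measured members in brackets and dashed lines at the shares of all measured genes, 9.39% and 11.8%. Heat shock and neuromuscular junction genes have bars only to the left, matrix, cell cycle and homeobox lists mainly to the right, lipid genes on both sides, and cytosolic ribosomal proteins have none.

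Amino acid enzymes that passed 1.5-fold were mostly on the higher side. Of 38 measured, 9 were at least 1.5-fold higher (23.7%) and 1 lower, though the median was 0.03. Only 2, Gpt2 and Phgdh, were at least 2-fold higher, both as bounds. Gpt2, which makes alanine from pyruvate in mitochondria, had 4.79, 8.45 and 9.88 and was at least 14.6-fold higher, a bound because the control signal lay under the floor. The 3 enzymes that make serine from a glycolytic intermediate were all higher: Phgdh, the first step (5.85, 7.47 and 8.32), by at least 4.95-fold, Psat1 (7.84, 8.64 and 8.70) by 1.81-fold and Psph (7.79, 8.42 and 8.54) by 1.69-fold. Each had its lowest signal in control. Aldh18a1, which opens proline synthesis, was 1.71-fold higher, Glul, glutamine synthetase, 1.59-fold higher, and Bcat2 and Ppm1k, which act in branched-chain amino acid breakdown, 1.60-fold and 1.82-fold higher, although averaging the probe sets of Ppm1k gave -0.35. The threonine and glycine enzyme Gcat was 1.74-fold lower. Chac1, which cleaves glutathione and is a target of the amino acid response factor ATF4, had 8.99, 11.11 and 11.21 and was 4.68-fold higher. It is 1 of 43 measured endoplasmic reticulum stress and secretory genes, of which 3 were at least 1.5-fold higher and 1 lower. The endoplasmic reticulum chaperone Hspa5, which was lower, is counted with the heat shock genes and not in this list.

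Amino acid carriers went both ways. The glycine carrier Slc6a9 was at least 2.44-fold higher, the leucine carriers Slc43a1 and Slc43a2 1.85-fold and 2.20-fold higher, although a further Slc43a2 probe set gave 0.02, and Slc7a5, another leucine carrier, at least 1.55-fold higher. Slc38a1, a glutamine carrier, had 11.28, 10.67 and 9.99 and was 2.44-fold lower. Of 24 amino acid carriers 5 passed 1.5-fold upward and 1 downward. The full solute carrier family, with 180 measured genes, held 32 higher and 28 lower, with a median of -0.02. Each side held more than its share among all genes, but the family was dimmer, with a median control signal of 8.43 against 8.85. Of its genes 21 were bounds, and the part of dim signals in these counts was not tested.

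Carbon handling differed enzyme by enzyme. Slc16a3, which exports lactate from glycolytic fibres, had 11.18, 12.33 and 13.11 and was 3.80-fold higher. The lactate dehydrogenase subunits parted: Ldha, of glycolytic fibres, was 2.16-fold higher and Ldhb, of oxidative ones, 1.66-fold lower, from a control signal of 15.16 near the top of the scale. Fbp2, the muscle fructose bisphosphatase, was 6.90-fold higher, Pck1 and Pck2, which make phosphoenolpyruvate, 4.60-fold and 2.38-fold higher, and Gpd1, of the glycerol phosphate shuttle, 4.13-fold higher. Pck1 also stands in the list of adipocyte markers. The catalytic subunits of the phosphatase that switches pyruvate dehydrogenase on lay on opposite sides, with Pdp1 1.64-fold higher and Pdp2 2.58-fold lower (9.87, 8.65 and 8.50), and the regulatory subunit Pdpr was 2.19-fold lower. Of the kinases that switch it off, Pdk4 was 2.09-fold lower, with its highest signal at 7 days (14.83, 15.02 and 13.77), and Pdk3 1.83-fold higher. In this list 9 of 28 were higher and 6 lower. Several regulators of glycolytic flux and glycogen were higher: Pfkfb3 and Pfkfb1, which make an activator of phosphofructokinase, by 2.64-fold and 2.09-fold, and the glycogen-targeting phosphatase subunits Ppp1r3b and Ppp1r3a by 2.18-fold and 1.87-fold, whereas Pfkfb2 was at least 1.80-fold lower. Prkag3, the AMP-activated kinase subunit of glycolytic fibres, had 9.19, 10.95 and 10.94 and was 3.35-fold higher.

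Lipid genes lay on both sides of control, with 9 of 42 higher and 9 lower. All 7 measured elongases and desaturases lay above control, 4 of them by at least 1.5-fold. Scd, which makes oleate, had 10.31, 12.30 and 12.05 and was 3.34-fold higher, Scd2 had 9.68, 10.35 and 11.14 and was 2.75-fold higher, and Fads1, of polyunsaturated fatty acids, was 2.34-fold higher. Fasn, fatty acid synthase, had 9.58, 11.12 and 10.88 and was 2.45-fold higher, with a further probe set at 1.32. Scd and Fasn had their highest signal at 7 days, Scd2 and Fads1 at 14 days. Several proteins of the lipid droplet and of glycerol traffic were low instead. Cidea had 10.74, 9.67 and 8.72 and was 4.06-fold lower. Plin5, which ties droplets to mitochondria, had 10.59, 9.76 and 8.82 and was 3.40-fold lower. Plin4 was 1.93-fold lower, and Aqp7, a glycerol channel, had 11.03, 9.31 and 8.80 and was 4.71-fold lower. Of 8 perilipin and CIDE genes 3 were at least 1.5-fold lower and 1, the droplet protein Plin1, was higher. Cidea, Plin5 and Aqp7 stepped down from control to 7 days and again to 14 days. Lpl, lipoprotein lipase, and Gpam, the first acyltransferase of triglyceride synthesis, were 1.72-fold and 2.08-fold lower. Cidea and Scd are both adipocyte markers and went opposite ways. Of the other fat cell markers Pck1 had the largest difference, 2.20, Plin1 was 1.91-fold higher and Adipoq 1.53-fold higher. Fabp4 differed by -0.28 and Cidec by -0.46. Of all 12 markers 4 were at least 1.5-fold higher and 1 lower. The 12 adipocyte markers summed to an unlogged signal of 27500 in control, 41500 at 7 days and 29400 at 14 days, and their part in the lipogenic values was not tested.

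Cholesterol genes had a list median of 0.39, with 8 of 29 at least 1.5-fold higher. Insig1, the sterol sensor partner, was 1.99-fold higher, Cyp51, a sterol demethylase, 1.95-fold higher, Abca1, the cholesterol exporter, 2.30-fold higher and Apoe 2.12-fold higher. Mvd was 1.59-fold lower. Of 13 ketone, acetate and short-chain enzymes 5 were lower and 2 higher, the latter being Bdh2 (1.93-fold) and Acat2 (1.65-fold). Bdh1, the first enzyme of ketone use, had 8.56, 3.98 and 6.48 and was 4.21-fold lower, with a further probe set at -2.30, Acss1, which activates acetate in mitochondria, was 2.31-fold lower, and Oxct1, the enzyme that commits ketones to oxidation, was 1.64-fold lower. The 7-day signals of Bdh1 and Oxct1 were lower still, at 3.98 and 12.49, and that of Acss1, 9.88, was like its 14-day signal of 9.86. The 7-day signal of Bdh1 lay under the floor, so the size of its dip is not measured.

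**Figure D4:**
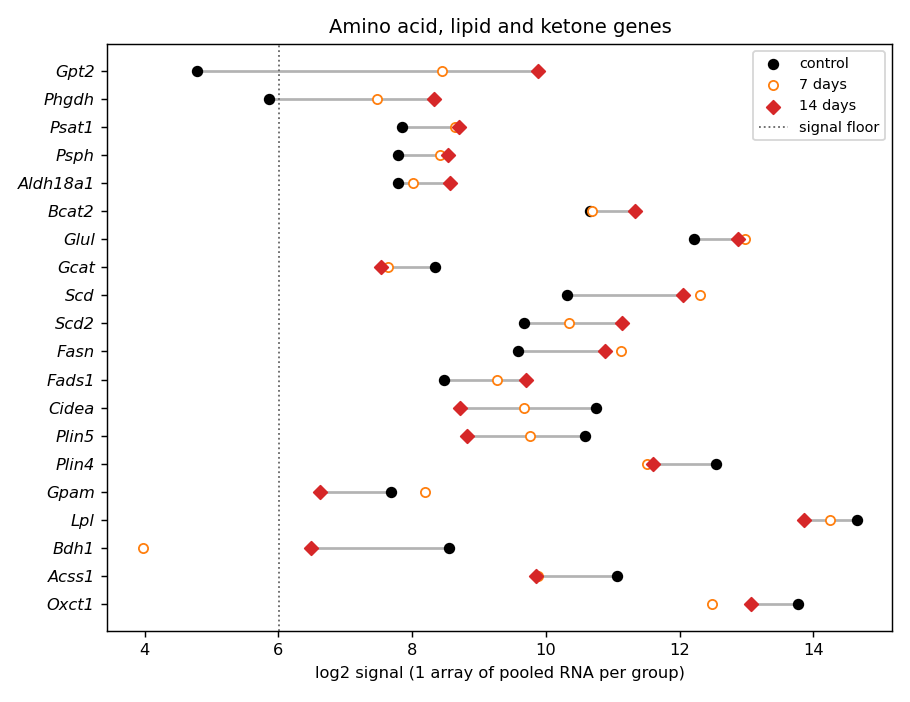
Log2 signal (x axis) on the control, 7-day and 14-day arrays for 20 genes of amino acid, lipid and ketone metabolism, 1 row per gene, with the signal floor dotted. The 14-day diamonds lie to the right of control for Gpt2, the serine enzymes, Aldh18a1, Bcat2, Glul and the lipogenic genes from Scd to Fads1, and to its left for Gcat and the genes from Cidea down to Oxct1.

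In the list of creatine, adenylate and purine nucleotide enzymes 4 of 30 genes were at least 1.5-fold lower and 0 higher, with 16 above control, 14 below it and a median of 0.02. Ak4, a mitochondrial adenylate kinase, had 8.52, 7.31 and 6.17 and was 5.08-fold lower, and Ampd3, an AMP deaminase, was 2.29-fold lower (12.49, 12.15 and 11.30). Of 42 mitochondrial shape and quality control genes 37 had the lower signal at 14 days, with a median of -0.26. Over all 11062 measured genes 5307 did. Only 4 of the 42 were at least 1.5-fold lower, or 9.52%, against 9.39% of all genes. Among them were Mief1, a fission adaptor (1.93-fold), the deacetylase Sirt3 (1.55-fold) and Mcu, the calcium uniporter (1.51-fold). For genes grouped with complex I by symbol the 14-day signal was lower in 30 of 35 (median -0.25). For cytochrome c oxidase it was lower in 14 of 15 (median -0.21). None of either group was 1.5-fold lower. The exceptions of size in the complex I group were Ndufa4l2 (2.41-fold higher), which was placed there by its symbol only, and Ndufs4 (1.56-fold higher). The mitochondrial ribosome and import list had 66 of its 89 genes on the lower side and a median of -0.16, with 4 (4.49%) at least 1.5-fold lower. Cytosolic ribosomal proteins had 18 above and 22 below control, a median of -0.02 and no member at 1.5-fold in either direction. After quantile normalization 31 of them lay above control and 8 below, with a median of 0.06, whereas 34 of 42 mitochondrial shape genes and 61 of 89 mitochondrial ribosome and import genes still lay below it. The brighter complex I and cytochrome c oxidase groups, with median control signals of 14.09 and 14.59, were not recomputed after quantile normalization.

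Of 35 nuclear receptors and coregulators 4 were higher and 7 lower, with a median of 0.0031. All 3 estrogen-related receptors were lower: Esrrb had 8.22, 7.34 and 6.81 (2.67-fold), Esrrg 12.42, 11.86 and 11.34 (2.13-fold) and Esrra 11.36, 10.41 and 10.37 (1.98-fold). Their coactivator Ppargc1a had 10.43, 10.11 and 9.59 and was 1.80-fold lower, with further probe sets at -0.71 and -0.76. Nr4a3, an orphan receptor induced by exercise, was 2.92-fold lower. Nr2f2, a factor of vessel and stromal cells, was 1.76-fold higher. Circadian clock and output genes lay on both sides, 4 of 25 higher and 6 lower with a median of -0.0025: Dbp was 2.40-fold, Per3 2.07-fold, Per2 1.85-fold and Usp2 2.19-fold lower, and Per1, also a glucocorticoid target, was 2.26-fold and the repressor Bhlhe41 1.55-fold higher. The hour at which the muscles were taken is not given in the sources used here.

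Channels, pumps and ion carriers differed member by member. Aqp4, the water channel of fast fibres, had 8.94, 11.40 and 11.96 and was 8.12-fold higher. The sodium pump subunits parted, with Atp1b2 (7.99, 8.64 and 10.62) 6.22-fold higher and Atp1b1 1.62-fold lower. Kcnc1, a fast voltage-gated potassium channel, had 5.04, 6.56 and 8.45 and was at least 5.41-fold higher, and its relative Kcnc4 2.16-fold higher. The chloride transporter Clcn4 was 2.65-fold higher (8.95, 8.96 and 10.36). Kcnj11, the pore of the ATP-sensitive potassium channel, was 1.92-fold lower, but its further probe sets gave 0.14 and -0.83. Trpc1, a cation channel linked to stretch, was 2.09-fold lower, Panx1 2.0-fold lower and P2rx5, an ATP receptor, 2.07-fold lower. Potassium channels counted 8 higher and 5 lower of 34, at dim signals with 14 bounds among the 34, and other channels 5 and 6 of 34. Ion, metal and nucleoside carriers leaned down, 9 lower against 4 higher of 25: the anion exchanger Slc4a3, the phosphate carrier Slc20a1 and the zinc carrier Slc30a4 were 2.46-fold, 2.31-fold and 2.23-fold lower, and the bicarbonate carrier Slc4a4 and the sodium-calcium exchanger Slc8a1 2.57-fold and 1.90-fold higher. Mitochondrial carriers were split, with the citrate carrier Slc25a1 and the ATP carrier Slc25a25 2.39-fold and 2.81-fold higher and the carnitine carrier Slc25a20 and the glutamate carrier Slc25a22 1.85-fold and 2.42-fold lower.

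Redox genes lay on both sides of control. Of the 5 measured glutathione S-transferases of class mu, 4 were at least 1.5-fold higher, with a median of 1.18: Gstm2 had 8.27, 10.05 and 10.25 (3.96-fold), Gstm1 8.15, 9.30 and 9.48 (2.51-fold), Gstm4 7.94, 9.03 and 9.13 (2.27-fold) and Gstm5 11.70, 13.22 and 12.41 (1.64-fold). These paralogs are near neighbours in sequence, and signal shared between their probe sets could not be separated. All 4 were already above control at 7 days. Some other redox genes were lower: Srxn1 (8.46, 7.63 and 7.15, 2.48-fold), Nqo1 (11.27, 9.99 and 10.32, 1.94-fold) and Gsta4 (1.74-fold). The metallothionein Mt2A had 10.89, 10.77 and 9.06 and was 3.56-fold lower, with nearly the control signal at 7 days. Catalase, Cat, was 1.55-fold lower. Over the whole list of 55, 8 were higher and 7 lower.

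In growth and hormone signalling, single feedback genes had large differences. Cish, a suppressor induced by STAT5, had 7.57, 8.0 and 10.12 and was 5.83-fold higher, and Socs2, of the same pathway, was 2.12-fold higher. Of 6 measured genes, the SOCS genes and Cish, 2 were at least 1.5-fold higher and 1 lower, with 3 above control and 3 below it. The list of cytokine receptors, JAK, STAT and SOCS genes held 7 higher and 5 lower of 32, with a median of -0.04. The growth hormone receptor Ghr was 1.56-fold higher, with a further probe set at 0.19, and Stat5b 1.64-fold lower. Il15, a cytokine made by muscle, had 8.26, 9.60 and 9.84 and was 3.0-fold higher. Irs2, an insulin receptor substrate, was 2.50-fold lower and Irs1 1.57-fold higher. Large differences were also seen in 3 genes known to restrain mTOR complexes: Deptor had 10.27, 11.54 and 11.60 (2.51-fold, a further probe set at 1.95), Ddit4 9.62, 11.53 and 10.82 (2.29-fold) and Ddit4l 12.19, 13.84 and 13.64 (2.74-fold). All 3 were above control on both later arrays. Eef2k, the kinase that halts elongation, was 2.02-fold higher and the only one of 59 measured translation factor and tRNA synthetase genes past 1.5-fold. Odc1, which opens polyamine synthesis, had 12.33, 11.69 and 11.12 and was 2.31-fold lower. The insulin and mTOR list held 10 higher and 4 lower of 43, with a median of -0.01.

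In the activin pathway, which limits muscle mass, members lay on both sides of control. Of 6 activin, inhibin and follistatin genes 1 was higher and 3 were lower. The wider list of TGF-beta, BMP and activin genes held 8 higher and 6 lower of 44. Inhba, the activin A subunit, had 8.45, 7.28 and 6.91 and was 2.90-fold lower, though a further probe set gave -0.10. Fst, which traps activins, was 2.55-fold higher with a further probe set at 1.04, and the receptor Acvr2b 2.22-fold higher. Igf1 was 1.76-fold higher with further probe sets at 0.83 and 0.88, and the binding proteins Igfbp5 and Igfbp3 2.19-fold and 2.0-fold higher, while Igfbp2 was 1.83-fold lower. The IGF list held 4 higher and 1 lower of 10, with 5 above and 5 below control. Of 42 WNT, Notch and Hippo genes 5 were higher and 5 lower (11.9% each), near the shares of all genes. The fibre nuclear factors Tead4 and Vgll2 were 2.32-fold and 1.90-fold lower, and the WNT receptors Fzd1, Fzd4 and Fzd8 1.74-fold, 1.59-fold and 2.04-fold higher. Crym, which binds thyroid hormone, was 2.72-fold lower, with 11.47 at 7 days and 9.56 at 14 days.

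Protein breakdown showed little at the level of its machinery. Of 73 proteasome, ubiquitin conjugation and deubiquitinase genes 1 was higher and 4 were lower. Of 50 ubiquitin ligases and adaptors of muscle 6 were higher and 5 lower, near the shares of all genes, and of 10 Asb adaptors 1 was higher and 2 lower. The cullin adaptors Asb5 and Asb18 were 2.82-fold and 3.10-fold lower and Asb11 2.36-fold higher, and the kelch adaptor Klhl33 was 2.52-fold higher and Klhl40, which stabilises thin filaments, 1.59-fold lower. Trim63, the ligase MuRF1, had 12.81, 13.71 and 12.20, a high value at 7 days and a 14-day value 1.52-fold under control. Of 58 lysosome and autophagy genes 7 were higher (12.1%), near the share of all genes, and 1, Gabarapl1, was lower. Among the higher ones were Ctsc (1.75-fold), Gusb (2.12-fold) and the lysosomal master factor Tfeb (1.75-fold).

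Genes of the nerve-muscle junction leaned down, with 6 of 21 lower and 0 higher. Chrnd, an acetylcholine receptor subunit, had 11.01, 9.94 and 9.05 and was 3.88-fold lower. Runx1 (2.53-fold), Myog (2.02-fold), Ncam1 (1.62-fold) and Colq (1.77-fold), of which all but Colq are known to be induced by denervation, were lower too. Myogenic factors parted: Myod1 had 8.14, 9.09 and 9.99 and was 3.60-fold higher, while Myog had 12.20, 10.94 and 11.19. The fusion gene Mymk was 2.79-fold lower. The largest difference on the lower side among all measured genes was that of Mettl21c, a lysine methyltransferase of slow muscle, with 11.87, 9.65 and 8.42 (10.9-fold), and Smyd1, a myosin chaperone and methyltransferase, was 2.38-fold lower. Higher by much were Ky, which fibres need for their maintenance (11.28 at 7 days and 13.01 at 14 days, 8.07-fold above control), and Cd24, a surface glycoprotein (7.19, 7.62 and 10.74, 11.7-fold). The RNA-binding proteins Cirbp and Rbm3, which cells make in mild cold, were 1.69-fold and 1.52-fold higher, and further Cirbp probe sets gave 1.18 and 0.93.

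Matrix genes leaned to higher values. Of 44 measured collagen chains and collagen enzymes 15 were at least 1.5-fold higher and 2 lower, with a median of 0.35. The fibrillar chains Col1a1 and Col1a2 had 13.88, 14.03 and 14.92 and 14.62, 14.70 and 15.37, folds of 2.06-fold and 1.68-fold near the top of the scale, and a further Col1a1 probe set gave 1.45. Col6a1, Col6a2 and Col6a3, which make the microfibrils around fibres, were 1.68-fold, 1.60-fold and 1.53-fold higher. The cartilage chains Col2a1 and Col11a2 were 3.04-fold and 2.90-fold higher at dim signals (7.22, 7.85 and 8.82 and 7.27, 6.44 and 8.80), and a further Col2a1 probe set differed by 0.01. Lox, which crosslinks collagen, and Pcolce, which speeds its trimming, were 2.02-fold and 1.87-fold higher. The exceptions were Col22a1, a chain of the muscle-tendon junction (1.64-fold lower), and Plod2 (1.64-fold lower).

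Other matrix proteins followed in 13 of 50 cases upward and 3 downward. Comp, a cartilage and tendon glycoprotein, had 8.28, 8.10 and 9.66 and was 2.60-fold higher, the proteoglycan Fmod, of tendon, 11.96, 11.61 and 12.97 and 2.01-fold higher, and Tnc, tenascin-C, 9.65, 8.54 and 10.50 and 1.81-fold higher. For these 3 the 7-day signal lay below control. Matn2, Efemp1 and Tgfbi were 2.59-fold, 2.10-fold and 2.0-fold higher and had most of that difference at 7 days. Sdc4, a syndecan of focal adhesions, was 2.23-fold lower. Of 36 matrix proteases and inhibitors 12 were higher, among them Mmp2 (1.66-fold), Fap (1.74-fold), Adamts5 (1.66-fold) and the inhibitor Reck (1.99-fold), and 2, Adam10 and Plaur, were lower. The 14 measured fibroblast and tendon markers also lay mostly above control: 6 were at least 1.5-fold higher and 1 lower, none was at 0 on either array, and their summed unlogged signal was 128000 in control and 183000 at 14 days. Pdgfra was 1.69-fold and Pi16 1.84-fold higher, Dcn differed by 0.48, Scx, the tendon factor, was 1.65-fold lower and Tnmd, a tendon cell protein, differed by 0.03. Their part in the matrix values was not tested, and Col1a1, Col1a2, Col3a1, Comp, Dcn, Fmod, Lum, Scx, Thbs4 and Tnmd stand in both the marker list and the matrix lists.

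**Figure D5:**
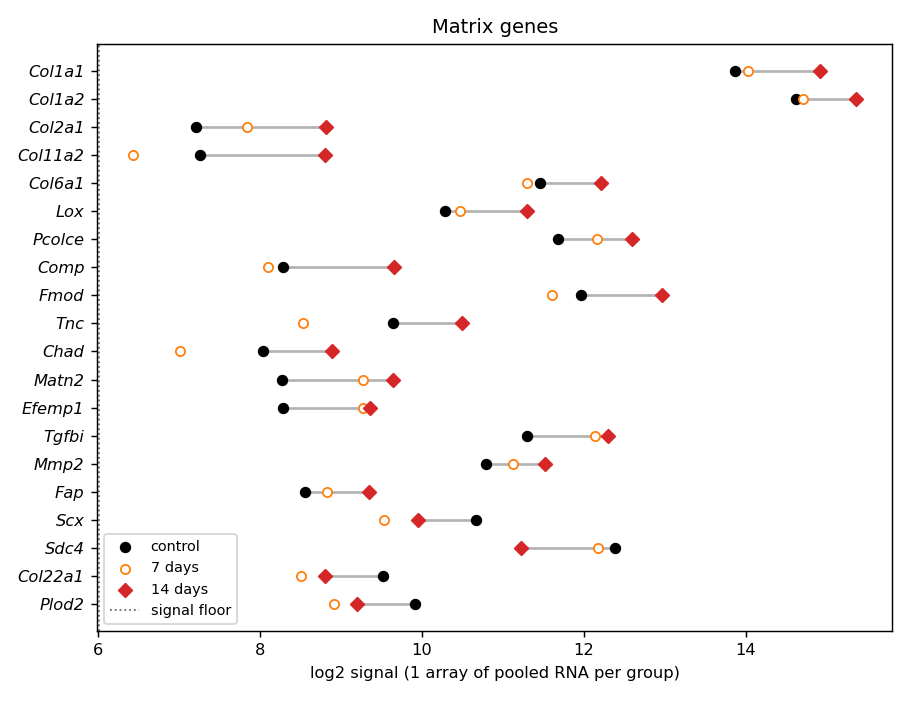
Log2 signal (x axis) on the control, 7-day and 14-day arrays for 20 matrix genes, 1 row per gene, with the signal floor dotted. The 14-day diamonds lie to the right of control except for Scx, Sdc4, Col22a1 and Plod2. The 7-day circles lie to the left of control for these 4 and for Col11a2, Col6a1, Comp, Fmod, Tnc and Chad.

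Cell cycle genes leaned upward: 18 of 64 were at least 1.5-fold higher and 3 lower, with a median of 0.30, at dim signals for most. With the floor at the 60th percentile 9 of 44 were higher and 2 lower, with a median of 0.12. Ccne2, a cyclin of S phase entry, had 3.54, 7.37 and 7.68 and was at least 3.16-fold higher, and Ccna2 2.11-fold higher. All 5 subunits of replication factor C, which loads the sliding clamp, lay above control, Rfc2 by 1.93-fold and Rfc4 by 1.86-fold. The helicase subunits Mcm2 (7.36, 8.22 and 8.21) and Mcm6 (7.06, 8.28 and 7.99) were 1.81-fold and 1.91-fold higher, Mki67, of dividing cells, 1.70-fold higher and Top2a, which untangles replicated DNA, 1.69-fold higher with a further probe set at 0.18. Most of these genes were already at or near their 14-day signal at 7 days. Of the inhibitors of division, Cdkn1a was 1.92-fold higher, with a further probe set at 0.08, and Rb1 1.77-fold higher, while Cdkn1b and Cdkn1c differed by 0.10 and -0.28. E2f1, Cdc25b and Ccnd2 were 1.60-fold, 1.61-fold and 1.60-fold lower.

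E2F factors control replication genes. Their site, spelled TTTGGCGC, TTTCCCGC, TTTGCCGC or TTTCGCGC on either strand, was in 11 of 52 cell cycle promoters (21.2%), against 3.93% of all 9214. Genes with it had a median difference of 0.37 and the other 41 one of 0.30. The helicase subunits are shown with the matches in capitals, where a match on each strand overlaps, at chr4:122918095-122918138 (-) for Mcm2, from position -14, and chr13:42404450-42404521 (-) for Mcm6, from -139.
Mcm2: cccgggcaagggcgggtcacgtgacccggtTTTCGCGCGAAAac
Mcm6: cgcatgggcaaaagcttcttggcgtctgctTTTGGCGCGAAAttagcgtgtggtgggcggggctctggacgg

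Among positional and patterning factors 15 of 41 were higher and 3 lower, at dim signals for many, with 7 bounds among the 41. Of 19 Hox genes 7 were higher, including Hoxa5 (2.24-fold), Hoxa11 (2.13-fold) and Hoxa9 (1.90-fold), and Hoxd9 (2.10-fold) and Hoxd8 (1.68-fold) were lower. Maf, a large MAF factor of fast fibres, was 1.90-fold higher. Prox1, which acts in slow fibres and lymphatic vessels, had 10.61, 9.33 and 9.46 and was 2.21-fold lower, while the lymphatic marker Lyve1 differed by 0.26.

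Genes of other cells were present throughout. Antigen presentation and interferon genes were higher in 8 of 46 cases and lower in 3, with a median of 0.35: the peptide transporters Tap1 and Tap2 were 2.40-fold and 2.21-fold higher, the immunoproteasome subunit Psmb9 1.61-fold higher, and Ifit1 at least 2.97-fold lower. Macrophage markers were higher in 7 of 18 cases, with Cd14 2.01-fold, Tyrobp 2.0-fold and Cd163 1.84-fold higher and Lgals3 1.84-fold lower, and summed to 20500 in control and 22300 at 14 days. Schwann cell and nerve markers were higher in 5 of 11 cases and lower in 1, Ncam1. The myelin proteins Mbp and Pmp22 were 2.20-fold and 1.95-fold higher, and the 11 markers summed to 9800 and 17000. After quantile normalization 4 of 17 macrophage markers and 3 of 11 nerve markers were at least 1.5-fold higher, and 1 of each list was lower. No marker of these lists was at 0 on either array. Endothelial markers had 0 higher and 2 lower of 16, lymphocyte markers 0 and 1 of 6, and smooth muscle markers 3 and 1 of 15. Red cell markers were all below control, led by Hba-a3 (9.66, 9.35 and 6.86, 6.94-fold lower), but the beta-globin Hbb, at 14.28 and 14.15, differed by -0.13. For comparison, the skeletal muscle markers summed to 727000 and 712000. Their median control signal was 15.35, near the top of the scale, where differences may be compressed. Of these 20 markers 1 passed 1.5-fold, with a log2 difference of 6.66. The part of these cells in the immune, myelin and globin values was not tested.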

How the data were processed

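RNA pooled from 4 rats per group was read on 1 Affymetrix rat array per group (3 arrays). The deposited values are log2 signals per probe set, judged from their range and from nearly equal trimmed means after unlogging. The sources used here do not name the program or its settings. Of 31099 probe sets, 57 were controls, 20826 carried 1 gene name, 436 several and 9780 none. The named probe set of highest mean signal stood for a gene, values under the floor (6.01, the 40th percentile) were set to it, and differences of 14 days minus control were taken with Python 3.11.15 and pandas 2.3.3. The script was tested on simulated data. No test was possible with 1 array per group. The number of arrays limits the precision. Promoter sequences are RefSeq's (GRCr8).

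The comparison and the 70 gene lists were chosen with earlier results of these data known, and 59 families were assembled by symbol. Named genes are the 30 largest and 30 smallest differences, the 10 largest bounds each way, up to 6 of each list by size, lists of 10 or fewer in full, cell type markers and the 5 brightest members of a list, without predicted loci. Named outside this rule, after their values were seen, were Adamts5, Ankrd2, Asb18, Bag3, Bcat2, Bhlhe41, Cat, Ccnd2, Cdc25b, Chad, Col22a1, Col6a1, Col6a2, Dnajb14, E2f1, Ephx1, Fads1, Fap, Fgfr4, Fosb, Fzd4, Gabarapl1, Ghr, Gpam, Gsta4, Gstm5, Homer2, Hoxa9, Hoxd8, Hspa2, Hspa5, Hspb8, Irs1, Itga7, Junb, Kif5a, Klhl40, Mafk, Mcm2, Mki67, Mrtfa, Mvd, Myo9b, Ndufa4l2, Ndufs4, Nrp2, Pdk3, Pdp1, Plaur, Plod2, Psph, Rb1, Rcan2, Rfc4, Rgs2, Slc25a20, St13, Stat5b, Stip1, Tln1, Tnc, Tnfsf12, Top2a, Trim63 and Tubb6. Other floors, scalings and probe set choices were tried as alternatives.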

Additional observations from a re-analysis of the deposited data

Results flagged for a closer look

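Of 2288 genes in the gene lists, 7 lay at least 1.5-fold on one side of control at 7 days and at least 1.5-fold on the other side at 14 days. Both differences share 1 control array, and the difference between the times was not tested. Matrix genes made up 3 of them: Tnc, tenascin-C, differed from control by -1.11 at 7 days and by 0.85 at 14 days, Chad, chondroadherin, by -1.03 and 0.86, and Col11a2, a cartilage collagen chain, by -0.83 and 1.54. The chemokine Cxcl14 differed by -0.60 and 0.66, with a further probe set at -0.29 at 14 days, and the circadian repressor Bhlhe41 by -1.06 and 0.63. Trim63, the ubiquitin ligase MuRF1, differed by 0.91 and -0.61, and Ephx1, an epoxide hydrolase, by 0.62 and -0.71.

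Outside the named genes, 179 of 4899 measured probe sets without a gene name stood at least 2-fold above control at 14 days and 144 stood as far below it, which is 6.59% in all. The largest differences were 2.94, with signals of 6.24, 7.26 and 9.18 in control, at 7 days and at 14 days, and -5.10, with signals of 11.11, 6.80 and 5.75.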

How the results depend on the processing

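The counts of genes at least 2-fold apart depended on the signal floor. Against 390 higher and 272 lower genes, a floor at the 20th percentile gave 802 and 958, a floor at the 60th percentile 222 and 136, and no floor 1237 and 1587. Centring each array gave 402 and 259, quantile normalization 371 and 286, averaging all probe sets of each gene 389 and 320, and leaving out probe sets with an x or s suffix 387 and 271. With probe sets averaged, the difference of Lifr, a cytokine receptor, was -0.13 against 1.04, that of Prlr, the prolactin receptor, 0.34 against -1.04, and that of Slc25a23, a mitochondrial carrier, 0.32 against -1.03. The sign also turned for Itga7 (0.38 against -0.65), Ppm1k (-0.35 against 0.86), Camkk2 (0.86 against -0.92), Ppp2ca (0.26 against -0.78), Nr3c1 (-0.34 against 0.59), Mrps2 (0.085 against -0.59) and the macrophage marker Aif1 (-0.93 against 0.64), and for Aif1 without suffixed probe sets too (-0.21). The cause was not tested. No other gene among 813 named ones that passed 1.5-fold turned sign where these 7 alternatives gave it a value. By more than the technical SD, 99 moved with probe sets averaged, 86 with the floor at the 60th percentile, 28 with it at the 20th, 28 with no floor and 3 without suffixed probe sets. Of 70 list medians, that of potassium channels was 0.35 with the floor at the 60th percentile and that of insulin-like growth factor genes 0.55 with the mean of probe sets. The cell cycle median was 0.12 with the floor at the 60th percentile, against 0.30, and the ketone median -0.04 with it at the 20th, against -0.25. Small shifts of a list median have no error here. No paired analysis was possible because each group had 1 array, and for the same reason no array could be left out. Signals near the floor gave bounds, and 51 of the 390 and 47 of the 272 genes were bounds.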
